A study of Mus musculus with 24 samples.

Results

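This report describes 29 genes that mark the hepatocyte, the main cell of the liver, as measured in 1 liver library and traced through 14 brain libraries of the same series. The genes were named as known hepatocyte genes. Each was looked up by symbol in the liver PAPERCLIP count table and in every brain PAPERCLIP table, and all 29 were found among 23871 genes. PAPERCLIP crosslinks mRNA to the poly(A)-binding protein and sequences tags at the 3′ ends of mRNAs, so a count is a number of tags at the ends of one gene's transcripts and is not scaled by gene length. The question for the liver was how its tags divide among secretory and metabolic functions, and the question for the brain was how far these genes were detected there at all.

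Hepatocytes make most of the proteins of blood plasma, among them albumin, apolipoproteins, protease inhibitors and the clotting protein fibrinogen. They also detoxify ammonia through the urea cycle, make glucose during fasting, break down amino acids and oxidise drugs and sterols with cytochromes P450. Factors of the HNF and C/EBP families are known to drive transcription of many of these genes. Most of the products are secreted, so their proteins reach the brain's blood vessels while their mRNAs are not made by most brain cells.

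Brain PAPERCLIP used mice that carry a GFP-tagged poly(A)-binding protein, Ctag-PABP, switched on by Cre, with anti-GFP precipitation. The groups were Gfap-Cre; Ctag-PABP cortex (2 libraries, a driver for astrocytes), Gad2-Cre; Ctag-PABP cortex (2, inhibitory neurons), Camk2a-Cre; Ctag-PABP cortex (2, excitatory neurons) and Cx3cr1-Cre; Ctag-PABP whole brain (2 untreated, 3 given PBS and 3 given LPS, bacterial lipopolysaccharide). In these groups the driver, not a sort of cells, sets which cells are sampled. The liver library, 1 in number and without a replicate, is labelled CL57/B6J, and its label names neither Cre nor tag. RNA-seq covered microglia of adult wild-type C57BL/6 mice given 1 mg/kg LPS (3 libraries) or PBS (3) by daily intraperitoneal injection for 4 days, taken after perfusion with CD11b beads, 2 brains to a tube. It also covered E18.5 cortex of Ptbp2-KO mice (3 libraries), with no control libraries analysed here. Only the knockout libraries are called biological replicates, so p-values for other groups measure a spread between libraries that may be technical.

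Total counts were 115734 in liver, 133456 to 2005627 in the 14 brain PAPERCLIP libraries, 1250170 to 2133407 in microglial RNA-seq and 19446610 to 27415288 in knockout cortex. Levels are given as CPM, the counts for each 1000000 counts of the library. Intervals are exact 95% intervals and cover counting error only, since reads may be copies of one molecule. Markers matched the labels: 13 of 13 microglia markers had counts in each Cx3cr1 library and summed to 4.33% to 5.46% of its counts, against 0.0233% in liver. Marker sums for the other cells of the liver were small in the liver library, with 16 counts over 5 Kupffer cell genes, 25 over 4 sinusoidal endothelial genes, 24 over 5 stellate cell genes and 61 over 5 cholangiocyte genes.

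Promoters of the members were read from the RefSeq table of build GRCm38.p6, which names the same assembly as mm10, from 250 bases before to 50 bases after the start site. The table held 25 promoters of 24 members, and none for Serpina3k, Cyp7a1, Cps1, Asl and Arg1. Promoters of 4 members that contrast in level are shown. Alb, Ahsg and Fgb had few or no counts in the 13 brain libraries other than Cx3cr1 PBS replicate 3. Igfbp4 was counted in every library. Capitals mark matches to the searched letters. Alb lies on the plus strand at chr5:90460620-90460919, Ahsg on the plus strand at chr16:22891765-22892064, Fgb on the minus strand at chr3:83049814-83050113 and Igfbp4 on the plus strand at chr11:99040994-99041293.
Alb: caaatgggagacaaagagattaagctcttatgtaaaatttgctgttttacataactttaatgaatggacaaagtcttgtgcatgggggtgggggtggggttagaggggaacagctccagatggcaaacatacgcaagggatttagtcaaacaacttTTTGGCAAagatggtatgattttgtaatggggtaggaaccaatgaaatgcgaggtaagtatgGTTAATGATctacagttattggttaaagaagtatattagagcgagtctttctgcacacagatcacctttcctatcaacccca
Ahsg: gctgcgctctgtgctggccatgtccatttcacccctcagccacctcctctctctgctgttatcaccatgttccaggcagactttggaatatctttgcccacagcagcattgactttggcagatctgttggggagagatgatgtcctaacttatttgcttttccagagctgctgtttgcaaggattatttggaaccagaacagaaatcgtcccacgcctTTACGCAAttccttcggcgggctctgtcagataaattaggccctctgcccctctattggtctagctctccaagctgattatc
Fgb: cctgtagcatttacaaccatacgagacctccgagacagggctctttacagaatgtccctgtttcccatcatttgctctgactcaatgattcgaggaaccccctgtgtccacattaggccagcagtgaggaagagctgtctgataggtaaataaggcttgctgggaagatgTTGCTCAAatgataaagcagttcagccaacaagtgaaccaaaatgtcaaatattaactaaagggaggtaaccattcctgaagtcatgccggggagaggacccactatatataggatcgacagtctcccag
Igfbp4: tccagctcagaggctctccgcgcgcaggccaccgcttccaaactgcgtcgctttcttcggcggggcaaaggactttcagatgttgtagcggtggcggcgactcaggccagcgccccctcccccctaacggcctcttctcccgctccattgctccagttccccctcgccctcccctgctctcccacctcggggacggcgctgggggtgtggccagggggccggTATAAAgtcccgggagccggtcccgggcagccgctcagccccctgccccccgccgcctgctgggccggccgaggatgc

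Capitals in Alb, Ahsg and Fgb match TTGCNNAA on either strand, a form of the C/EBP site, with first bases at -94, -32 and -80 from the start site. Of 25 member promoters, 8 held this match (Ahsg, Alb, Apoa2, Apob, Fga, Fgb, Hpx and Serpina1a), and 10.8% of all 32851 promoters of the same length did. The capitals in Igfbp4 match TATAAA on the gene's own strand, at -28. TATAAA was found in 7 of the 25 (Apoa2, Apob, Cyp2e1, Cyp3a11, G6pc, Igfbp4 and Tdo2) and in 8.32% of all. It therefore does not set Igfbp4 apart from the other members. The HNF1 letters GTTAATNAT, part of its site and searched on both strands, were found in Alb (the second run of capitals), Fga, G6pc and Gc and in 0.801% of all promoters. The HNF4 letters CAAAGTCCA were found in Cyp3a11 and in 0.475% of all. No 2 matches shown in capitals overlap, and a match is a run of letters only, not a measured site.

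In liver the members took 19670 of 115734 counts, 17.0% of the library (16.8% to 17.2%). All 29 had a count, 28 had at least 20, 17 had at least 100 and 6 had at least 1000. The 5 genes with the most counts in liver were all members: Alb (7026 counts), Pck1 (1956), Cps1 (1768), Tat (1464) and Gc (1367). Members held 7 of the first 10 places and 13 of the first 50. The tags were therefore unevenly spread, from 7026 counts for Alb to 6 for Cyp7a1.

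**Figure D1:**
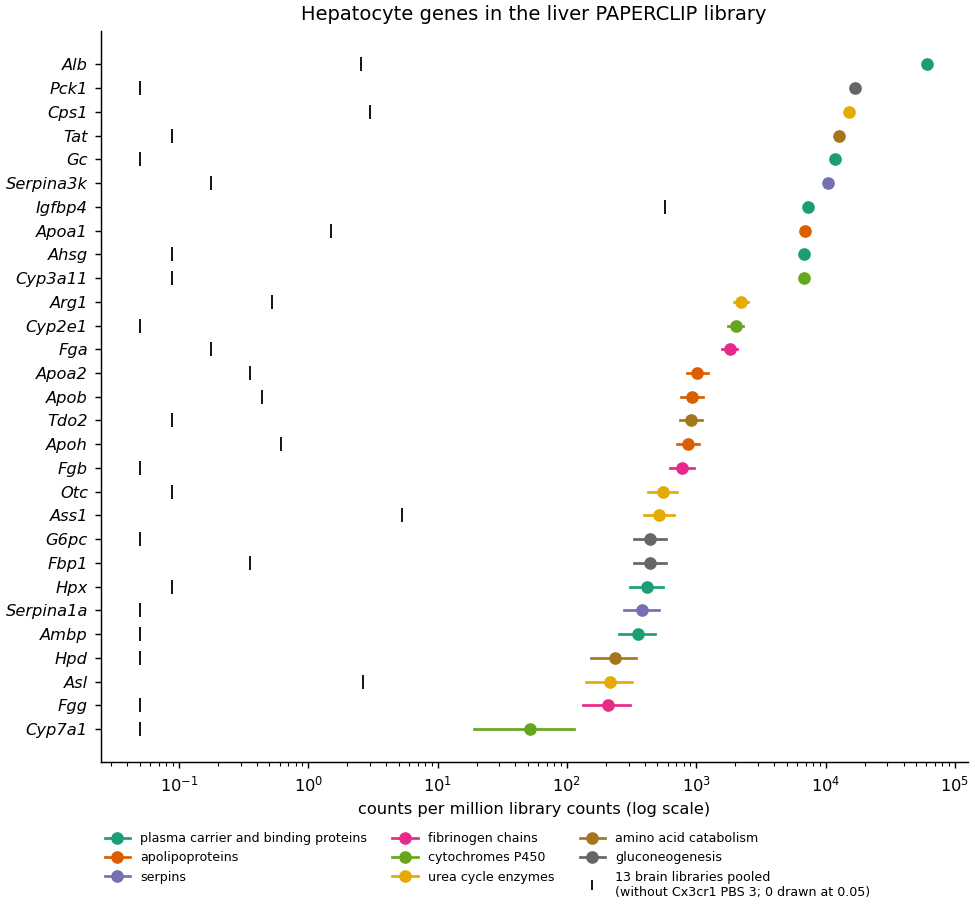
Level of each of the 29 members in the liver PAPERCLIP library (points, with exact 95% Poisson intervals; x axis, CPM on a log scale), coloured by function, beside the pooled level in 13 brain libraries (black ticks, 0 drawn at 0.05). Liver levels run from 51.8 CPM for Cyp7a1 to 60708 CPM for Alb, and the brain tick of Igfbp4 lies nearest to its liver point.

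Plasma carrier and binding proteins were the largest group in liver, with 8.74% of its counts. Alb, albumin, the main carrier of fatty acids and hormones in plasma, stood at 60708 CPM (59297 to 62145). It lies at chr5:90460870-90476602, close to Gc at chr5:89417511-89457898, which encodes the vitamin D-binding protein and stood at 11812 CPM. Ahsg, fetuin-A, an inhibitor of mineral deposition, stood at 6791 CPM. Igfbp4, which binds insulin-like growth factors, stood at 7284 CPM (6800 to 7793). Hpx, the haem carrier hemopexin, had 48 counts and Ambp, the precursor of alpha-1-microglobulin and bikunin, had 41. The group's counts thus ran over more than 2 orders of magnitude.

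Apolipoproteins, which package lipids for transport in blood, took 0.979% of liver counts. Apoa1, the main protein of high-density lipoprotein, had 808 counts, Apoa2 118, Apob, the backbone of very-low-density lipoprotein, 107, and Apoh 100. The serpins, inhibitors of serine proteases, took 1.08%, nearly all of it from Serpina3k with 1204 counts, against 44 for Serpina1a. Both belong to families of near-identical mouse paralogs, so the split of tags between Serpina1a, Serpina3k and their copies is uncertain. The 3 fibrinogen chains took 0.280%, with 210 counts for Fga, 90 for Fgb and 24 for Fgg. They lie side by side on chromosome 3, from 83007724 to 83049863, and each of the 3 counts lay outside the intervals of the other two.

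Enzymes of nitrogen and sugar metabolism came next. The urea cycle took 1.88% of liver counts. Cps1, which fixes ammonia in the first step of the cycle, had 1768 counts (15276 CPM), Arg1, which releases urea, 258, Otc 64, Ass1 60 and Asl 25, so the 5 enzymes of one cycle differed widely in tags. Gluconeogenesis took 1.78%, almost all from Pck1 (16901 CPM), which makes phosphoenolpyruvate, while G6pc and Fbp1, which release phosphate from sugar, had 51 counts each. Amino acid catabolism took 1.38%, with 1464 counts for the tyrosine aminotransferase Tat, 106 for the tryptophan dioxygenase Tdo2 and 27 for Hpd.

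Cytochromes P450 took 0.885% of liver counts. Cyp3a11, a drug-metabolising enzyme, had 784 counts and Cyp2e1, which oxidises ethanol, 234. Cyp7a1, the rate-limiting enzyme of bile acid synthesis, had 6 counts (51.8 CPM, 19.0 to 113). Cyp3a11 belongs to a cluster of similar genes, so its count carries the same uncertainty as that of the serpins. In the order of liver levels, Igfbp4, Apoa1, Ahsg and Cyp3a11 lay between 6774 and 7284 CPM, and their counting intervals overlapped.

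With 1 liver library there is no test of liver against brain, and the ratio of levels is a description. Of 3603 genes with enough counts for a ratio (at least 10 counts expected at liver depth in liver or in the pooled brain), 12.3% were at least 10-fold higher in liver than in the 14 brain libraries pooled. Of the 29 members 28 could be compared, and 28 of 28 were at least 10-fold higher. Their median ratio was 924, beside 0.641 over all genes compared. The genes were chosen as hepatocyte genes, so this describes the label of the library and is no independent result.

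The members did not stand equally far from the brain. Igfbp4 was 12.7-fold higher in liver (11.8 to 13.7), Asl 79.0-fold (44.9 to 138) and Ass1 92.0-fold (63.7 to 132). These were the 3 lowest ratios, and the other 25 lay above 300-fold. Cyp7a1 was not among the genes compared. It had no count in any brain library. With 3 counts over the 14 libraries as the limit, its measured liver level was at least 202-fold higher. That limit covers the brain side only, and the liver level rests on 6 counts (51.8 CPM, 19.0 to 113). In bulk libraries fewer cells that carry an mRNA and less of it per cell cannot be told apart.

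Traces in the brain were examined library by library, with Igfbp4 apart because it alone had many counts everywhere. The other 28 genes together had 19 and 35 counts in the Gfap libraries, 21 and 26 in Gad2, 20 and 11 in Camk2a, 2 and 1 in untreated Cx3cr1, 18, 34 and 14 in Cx3cr1 LPS, and 2, 3 and 961 in Cx3cr1 PBS. The third PBS library stood far above the rest. The rule that set these genes had already named that library, so its excess is a description and no independent result. In 13 brain libraries the 28 genes took 0.000600% to 0.00501% of counts, and in Cx3cr1 PBS replicate 3 they took 0.285% (0.267% to 0.303%). With Igfbp4 the share in that library was 0.336% (0.317% to 0.356%).

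**Figure D2:**
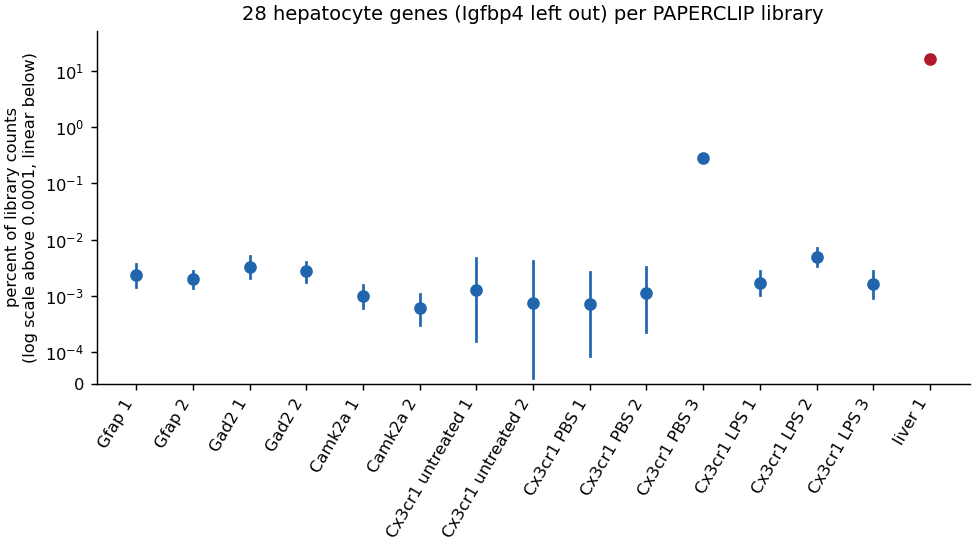
Summed share of the 28 members other than Igfbp4 (y axis, percent of library counts, log scale above 0.0001 and linear below) in each of 15 PAPERCLIP libraries, with exact 95% binomial intervals. Cx3cr1 PBS replicate 3 lies at 0.285%, between the other 13 brain libraries, at or under 0.00501%, and the liver.

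In that library 28 of the 29 members had a count, and Cyp7a1 had none, which allows up to 8.88 CPM. Alb led with 437 counts (1294 CPM). Elsewhere in the brain Alb had 4 counts in Camk2a replicate 1, 1 in Cx3cr1 PBS replicate 1, and 7, 13 and 4 in the LPS libraries, with 0 in the other 8. At the level of PBS replicate 3, 357 counts of Alb would be expected in PBS replicate 1 and 345 in PBS replicate 2, where 1 and 0 were found. The depth of those 2 libraries was thus ample to show it.

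After Alb came Serpina3k with 94 counts, Apoa1 with 67, Ahsg with 52, Pck1 with 35, Cps1 with 34, Gc with 31, Cyp3a11 with 24 and Fga with 21. Apob had 18, Hpx 15, Tat and Arg1 14 each, Apoa2, Apoh and Fbp1 13 each, Ambp 12 and Fgb 10. The remaining 9 members with a count, apart from Igfbp4, ranged from 2 counts for Cyp2e1, G6pc and Asl to 8 for Serpina1a. In the other 13 brain libraries 10 members had no count at all, among them Pck1, Gc, Fgb and Cyp7a1. Secreted proteins and enzymes were both present, as in liver.

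Counts of these members in the other 13 brain libraries were few. Apoa1 had 5 and 5 in Gfap, 1 in Gad2 replicate 2, 3 and 1 in Camk2a, and 1 each in LPS replicates 2 and 3. Apoh had 1 in Gad2 replicate 2, 3 and 2 in Camk2a and 1 in LPS replicate 3. Apoa2 had 2 in Gfap replicate 1 and 1 each in Gad2 replicate 1 and Camk2a replicate 2. Asl had 1 and 7 in Gfap, 1 and 0 in Gad2, 3 and 2 in Camk2a, 2 and 1 in untreated Cx3cr1, 1 and 1 in PBS replicates 1 and 2, and 2, 6 and 3 in LPS. Apoa1 and Asl were thus each missing from a single cortical library, while Apoh and Apoa2 had counts in 3 of the 6.

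Apob had 1 count in PBS replicate 2 and 2 each in LPS replicates 1 and 2. Arg1 had 4, 1 and 1 in the LPS libraries and none elsewhere, and Fga had 2 in LPS replicate 3 alone. Fbp1 had 1 and 2 in Camk2a and 1 in LPS replicate 2. Serpina3k had 1 in Camk2a replicate 1 and 1 in LPS replicate 2, where Ahsg and Cyp3a11 also had 1 each, and Tat and Hpx had 1 each in a Gfap library. Otc had 1 in PBS replicate 2 and Tdo2 1 in Camk2a replicate 1.

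The level of each member in PBS replicate 3 was set against its level in liver. Summed over the 28 genes, the level in PBS replicate 3 was 1.75% of that in liver (1.64% to 1.87%). The median over the 27 of these genes with at least 20 liver counts was 2.84%. Single genes ran from 0.293% for Cyp2e1 to 10.7% for Hpx (5.57% to 19.5%). Alb stood at 2.13% (1.93% to 2.35%), Pck1 at 0.613% (0.426% to 0.856%) and Tat at 0.328% (0.179% to 0.552%). The interval of Alb overlaps that of neither enzyme. These intervals cover counting error only, so 2 single libraries cannot show whether the proportions differ beyond the spread between libraries.

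Functions were then summed. The 14 secreted members other than Igfbp4 summed to 2.28% of their liver level (2.12% to 2.45%), and the 14 enzymes to 0.820% (0.698% to 0.957%). By group, fibrinogen chains stood at 3.91%, apolipoproteins at 3.36% and serpins at 2.80%. The urea cycle stood at 0.977%, cytochromes P450 at 0.870%, gluconeogenesis at 0.832% and amino acid catabolism at 0.558%. The 3 enzymes with the most liver counts stood low, with Cps1 at 0.659% beside Pck1 and Tat, and weigh most in the enzyme sum. Single genes of both kinds overlapped widely, since the enzymes Fbp1 (8.73%), Hpd (6.35%), Ass1 (3.43%), Otc (3.21%) and Asl (2.74%) stood above the secreted sum and Gc, a secreted protein, stood at 0.777%. The median over single genes was 3.79% for the secreted members and 1.86% for the enzymes, and the difference was not tested. Both libraries are single, so these intervals cover counting error and not the variation between livers.

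**Figure D3:**
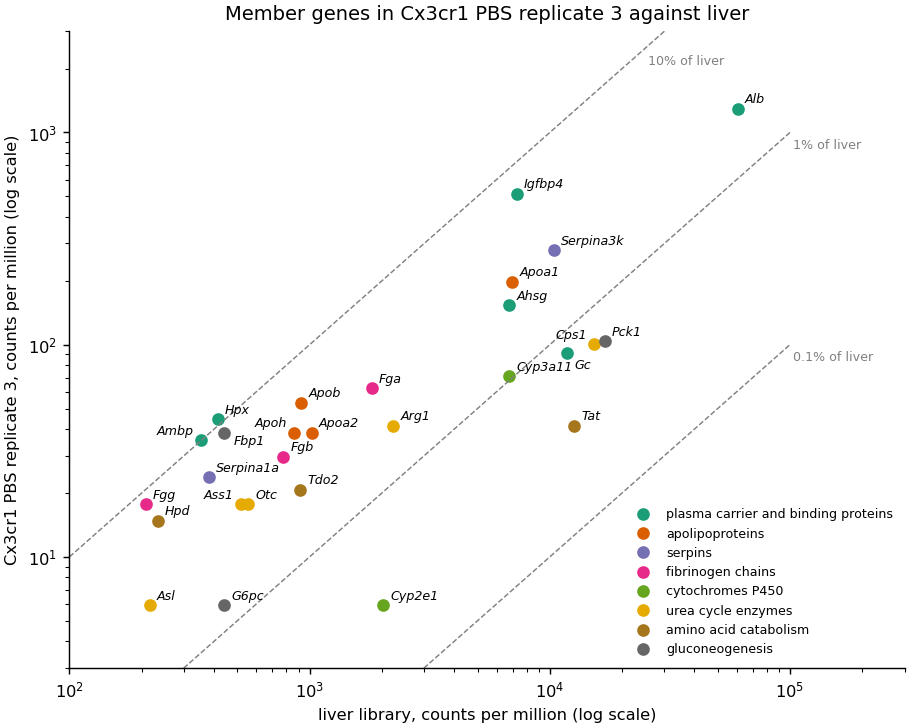
Level of each member with a count in Cx3cr1 PBS replicate 3 (y axis) against its level in liver (x axis), both in CPM on log scales, coloured by function, with dashed lines at 0.1%, 1% and 10% of the liver level. Most members lie between the 1% and 10% lines, and Tat and Cyp2e1 lie lowest relative to liver, at 0.328% and 0.293%.

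Other hepatocyte genes, from lists set beside the members, were present in PBS replicate 3 too. Of 37 other plasma proteins 34 had a count there, at a median of 3.89% of the liver level among the 25 with enough liver counts. Apoc1 had 44 counts there and 590 in liver, the thyroid hormone carrier Ttr 106 and 509, Apoc3 25 and 398, and the retinol carrier Rbp4 23 and 304. Of 18 other cytochrome P450 and bile acid genes 13 had a count, at a median of 0.646%, and Slco1b2, which takes up bile acids, had 6 counts there and 605 in liver. Of 22 other urea cycle and amino acid enzymes 18 had a count, at a median of 3.70%, close to that of the plasma proteins. Among them Mat1a, which makes S-adenosylmethionine, had 20 counts there and 595 in liver. Of 10 other sugar genes 7 had a count. Many genes of these lists were also counted elsewhere in the brain. No count in the other 13 brain libraries was found for 21 of the 37 plasma proteins and 10 of the 18 cytochrome P450 and bile acid genes. The same held for 6 of the 22 enzymes and 3 of the 10 sugar genes. For the rest, a count in PBS replicate 3 does not by itself set that library apart. Of 11 hepatocyte transcription factors 5 had a count, and this list holds Cebpa, which microglia also express, with 330 counts there and 173 in liver.

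The share of such genes was read against a background. In all, 88 genes had at least 20 counts in liver and none in the other 13 brain libraries, and 77.3% of them had a count in PBS replicate 3, at a median of 1.27% of their liver level. The 9 members among the 88 all had a count there, at a median of 3.81%. The background share is itself high, so the presence of members in this library was shared by most liver genes of that kind. From the other side, 21 genes had at least 10 counts in PBS replicate 3 and none in the other 7 Cx3cr1 libraries. All 21 were higher in liver than in the pooled cortical libraries, and 7 were members. These genes were picked by their counts in PBS replicate 3. The matching shares over all genes were not counted, so both counts are descriptions only.

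Other markers in the library are given as measured. Pan-neuronal markers (15 of 16 with a count) took 0.391% of counts in PBS replicate 3, against 0.0533% to 0.0834% in the other 7 Cx3cr1 libraries. Inhibitory neuron markers took 0.0370%, against 0.00707% to 0.0136%, and excitatory neuron markers 0.0557%, against 0.0113% to 0.0244%. Astrocyte markers took 0.0429%, against 0.0208% to 0.0330%, while oligodendrocyte markers, at 0.0524%, lay inside the range of the other 7. The choroid plexus list took 0.0335%, against 0.00145% to 0.00387%. Ttr, which is also on the plasma protein list, gave 106 of its 113 counts. Microglia markers took 4.58%, inside the range of the other 7. The 5 Kupffer cell markers together had 1 count in PBS replicate 3, 4 to 76 in the other 7 Cx3cr1 libraries and 16 in liver. With so few liver counts, this list cannot show whether Kupffer cell mRNA was present in the proportion of the members. The deposited file of PBS replicate 3 shares its name prefix with that of LPS replicate 3, in which the 28 genes had 14 counts. What these values have to do with the member counts was not tested.

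Whether the members differed between brain cell types was tested on the 8 untreated tagged libraries, in 1 edgeR quasi-likelihood fit over 9421 genes with Benjamini-Hochberg adjusted p under 0.05. Only 3 members, Igfbp4, Cps1 and Ass1, had enough counts to be tested, and the other 26 had at most 7 counts in any of these libraries. Between Camk2a and Gad2 libraries 21.2% of all genes tested were called, and 2 of the 3 members. Cps1 and Ass1 were both lower in Camk2a, and Igfbp4 did not pass.

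Cps1 had 12 and 17 counts in the Gad2 libraries, 1 and 0 in Camk2a, 0 and 0 in Gfap and 0 and 0 in untreated Cx3cr1. In the LPS libraries it had 0, 3 and 1. The Gad2 libraries were thus the high ones of the 6 cortical libraries. In untreated Cx3cr1 a count of 0 allows up to 19.4 and 22.5 CPM, so neither library taken alone was deep enough to show the Gad2 level. PBS replicates 1 and 2 also had no count, which allows up to 10.9 and 11.3 CPM, under the Gad2 level. Scaled levels were 17.6 ± 1.20 normalised CPM in Gad2 (SD, n = 2) and 0.241 ± 0.342 in Camk2a (n = 2). The log2 difference of Camk2a from Gad2 was -5.59 (SE 0.83, edgeR adjusted p = 8.96e-05). Cps1 met the minimum count only through the Gad2 libraries, so the choice to test it was not independent of this difference. Inhibitory neuron markers were lower in Camk2a for 9 of 9 tested. Microglia markers were also lower in Camk2a for 4 of 13, and their part in the result was not tested.

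Ass1, which joins citrulline and aspartate in the urea cycle and in the recycling of citrulline to arginine, had 10 and 22 counts in Gfap, 7 and 7 in Gad2, 3 and 3 in Camk2a, and none in untreated Cx3cr1. It had 0, 0 and 6 in PBS and 3, 4 and 1 in LPS. In CPM, Gfap stood highest (12.5 and 12.6), Gad2 next (11.1 and 7.36) and Camk2a lowest of the 3 (at most 1.64). The log2 difference of Camk2a from Gad2 was -2.43 (SE 0.69, edgeR adjusted p = 0.0160). That call was lost when any single Gad2 or Camk2a library was left out (adjusted p 0.0706 to 0.143).

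Against both neuronal groups, Gfap libraries differed at 60.5% of all genes tested and at 2 of the 3 members. Ass1 rose by 1.91 on the log2 scale (SE 0.47, edgeR adjusted p = 0.00171). It met the minimum count through the Gfap libraries, so the choice to test it was not independent of this rise. Igfbp4 fell by 2.69 (SE 0.30, adjusted p = 2.57e-07). Cps1, with 0 counts in both Gfap libraries, did not pass (log2 difference -4.40, adjusted p = 0.0638). Oligodendrocyte markers were higher in Gfap for 6 of 6 tested and astrocyte markers for 8 of 8, and their part in these differences was not tested.

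Igfbp4 was the member with by far the most brain counts. It had 80 and 190 counts in Gfap (99.9 and 109 CPM), 554 and 639 in Gad2 (879 and 672 CPM), 1653 and 1430 in Camk2a (824 and 780 CPM) and 104 and 48 in untreated Cx3cr1 (671 and 360 CPM). Gfap was thus the low group, and the 4 neuronal libraries lay together, with a log2 difference of 0.03 between Camk2a and Gad2 that did not pass. Of all genes tested 49.8% differed between untreated Cx3cr1 and the 3 cortical groups, and 0 of 3 members did by edgeR, 0 at an unadjusted p under 0.05 and 0 by DESeq2. For Igfbp4 that log2 difference was 0.46 (adjusted p = 0.156). Without untreated replicate 2, the lower of its pair, it was 0.85 (adjusted p = 0.00955).

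**Figure D4:**
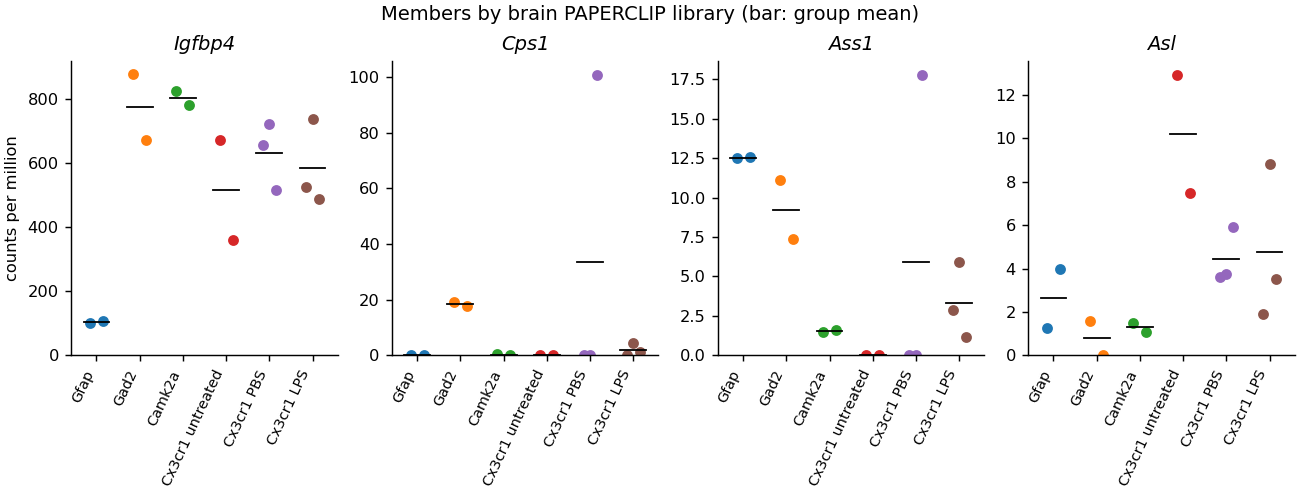
Level in CPM of Igfbp4, Cps1, Ass1 and Asl in each brain PAPERCLIP library (points) with the group mean (bar), by group on the x axis. Igfbp4 is lowest in Gfap, Cps1 stands out in Gad2 (17.9 and 19.0 CPM) and in PBS replicate 3 (101 CPM), and Asl rests on at most 7 counts in any library.

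The other genes of these pathways, from the lists beside the members, did not move as one. Of 7 other plasma proteins tested between Gfap and neurons, 4 were higher in Gfap and 2 lower. Itih3, a hyaluronan-binding protein, was higher by 8.93 on the log2 scale and Lcat, which esterifies cholesterol in lipoproteins, by 8.28, while Rbp4 fell by 5.12 and the growth factor Igf1 fell by 3.56 (edgeR adjusted p of each under 0.05). Of 4 other urea cycle and amino acid enzymes tested, 2 were higher in Gfap and 2 lower. The median over the 7 plasma proteins was 3.89, and that over the 4 enzymes was -0.64.

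Injection and LPS were compared within the Cx3cr1 libraries. Against untreated libraries, PBS libraries differed at 2.01% of 5112 genes, and LPS libraries differed from PBS at 3.53% of 5692 genes. These comparisons share the PBS libraries. In both, Igfbp4 was the only member with enough counts to be tested, and 0 of 1 was called by edgeR, at an unadjusted p under 0.05, or by DESeq2. Igfbp4 had 181, 192 and 174 counts in PBS (656, 721 and 515 CPM) and 548, 501 and 414 in LPS (526, 738 and 488 CPM). The groups overlapped, with a log2 difference of -0.12 (edgeR adjusted p = 0.845).

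The members' calls in these comparisons turned on PBS replicate 3. The rule that set these genes names that library, so calls that rest on it are no independent test of LPS or injection. When no minimum count was asked for, 28 members could be tested between LPS and PBS, and 20 were called, all lower in LPS, while 4.54% of 13908 genes tested were called. Without PBS replicate 3 and with no minimum count, 15 members could be tested and 0 were called by edgeR, with 1 at an unadjusted p under 0.05, beside 2.5% of all genes tested. PBS against untreated without the minimum count gave 7 of 28 members, beside 2.23% of all genes tested. Without that library as well it gave 0 of 15 by edgeR, with 0 at an unadjusted p under 0.05, beside 1.13% of all genes. DESeq2 was not run without the minimum count. Alb was called in LPS against PBS with the minimum count when PBS replicate 2 was left out (log2 difference -6.07, adjusted p = 0.0380), a setting in which PBS replicate 3 is 1 of the 2 PBS libraries. With replicate numbers as a block, LPS against PBS called 423 genes in place of 201 and again 0 members.

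In RNA-seq of isolated microglia 26.4% of 10267 genes tested changed with LPS. Of the members 3 passed the minimum count, and 1, Apob, was called. Apob met that minimum only through the LPS libraries, where it was high, so the choice to test it was not independent of its rise. Apob had 3, 3 and 4 counts in PBS libraries and 15, 24 and 14 in LPS libraries. Its scaled level was 2.00 ± 0.451 normalised CPM in PBS (SD, n = 3) and 11.3 ± 0.747 in LPS (n = 3), a log2 change of 2.49 (SE 0.37, edgeR adjusted p = 0.000387). Alb had 0, 1 and 1 counts in PBS and 1, 2 and 0 in LPS, so albumin was at or near 0 where Apob rose. The change in Apob was not traced to a cell type.

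Asl had 53, 28 and 37 counts in PBS and 49, 50 and 16 in LPS, and Igfbp4 had 117, 105 and 111 in PBS and 92, 135 and 98 in LPS. Both groups of libraries overlapped for each gene, and each log2 difference was 0.09, which did not pass. The urea cycle genes Ass1 and Arg1, both also known in activated macrophages, failed the minimum count. Ass1 had 0, 1 and 2 counts in PBS and 14, 7 and 5 in LPS, and Arg1 had 1, 1 and 2 in PBS and 8, 19 and 3 in LPS. With no minimum count 15.7% of 20970 genes tested were called and 3 of 16 members, Apob, Ass1 and Arg1, at a log2 difference of 3.13 for Ass1 (adjusted p = 0.000424) and 2.88 for Arg1 (adjusted p = 0.000351).

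**Figure D5:**
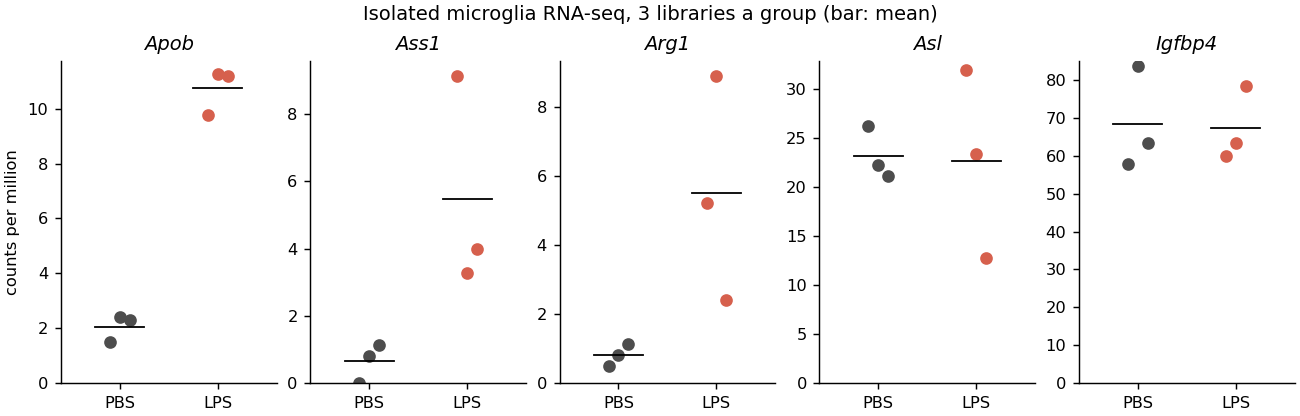
Level in CPM of 5 members in each library of isolated microglia (points; bar, group mean), 3 given PBS and 3 given LPS. Apob, Ass1 and Arg1 have the higher mean in LPS, and the groups overlap for Asl and Igfbp4. How many of all genes separate between the groups was not counted.

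Of 8 other plasma proteins tested in these microglia, 3 were higher with LPS and 3 lower. The complement component C3 rose by 4.21 on the log2 scale, Apoc1 by 3.82 and haptoglobin (Hp) by 2.04, and Ttr fell by 1.62. None of 5 other urea cycle and amino acid enzymes tested passed. Cell type markers moved as well, beside 26.4% of all genes tested. With LPS, 4 of 4 blood markers and 4 of 6 choroid plexus and ependymal markers were lower. Of 8 monocyte and border macrophage markers 3 were higher and 1 lower. Of 13 microglia markers 4 were higher and 7 lower. Of the Kupffer list, Marco and Cd5l were higher, by 9.95 and 7.34. The part of any of these in the rise of Apob was not tested.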

How the data were processed

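Values are the whole-number counts that the authors deposited for each library, not normalised, over 23871 gene symbols in PAPERCLIP and 47069 identifiers in RNA-seq. Cutadapt, Novoalign, STAR and mm10 are named per the submitters' processing notes, with no version. PAPERCLIP linkers carry a 7-base random barcode, per the labels' protocols. Whether duplicates were collapsed and whether strand was used is not given in the sources used here. RNA-seq levels were compared within a gene only.

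Members and lists were chosen with earlier results of these data known. All 29 members are accounted for: counts per library are given for members called in any comparison, members with at least 10 counts in a brain PAPERCLIP library and the 10 members with most counts in liver, and a library not named for a member there had none. Of other lists at most 4 genes are named, those called or with most counts in liver. Groups came from sample titles.

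Counts were fitted by edgeR's quasi-likelihood test (version 4.0.16, R 4.3.3) after its filterByExpr minimum and TMM scaling, and p-values were adjusted over the whole table by Benjamini-Hochberg. A gene was called at an adjusted p under 0.05, and this test gives each adjusted p printed. Normalised CPM use TMM-scaled totals. The 3 cell type comparisons share 1 fit of 8 untreated libraries, PBS against untreated used 8 Cx3cr1 libraries, and each LPS comparison used its own 6. The fits were tested on simulated counts. Shares have Clopper-Pearson intervals, levels Poisson intervals and ratios conditional binomial intervals. A count of 0 was limited at 3 counts.

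Replicate numbers were checked for pairing by correlating deviations from group means. In Cx3cr1 PBS and LPS libraries same-numbered pairs correlated at 0.130, 0.240 and 0.188, and pairs with unlike numbers at -0.186 to -0.0258. The numbers, taken from the titles, may therefore mark pairs. The tests given have no block, and the blocked counts stand beside them. Chi-square per degree of freedom between replicates was 2.10 to 76.9, so no 2 libraries agreed within sampling noise. Alternatives were other scalings, DESeq2 1.42.0, no minimum count, a replicate block, thinning to the shallowest library, a file-name prefix term and leaving out each library. Leaving out PBS replicate 3 with no minimum count was added after the data were seen.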

Additional observations from a re-analysis of the deposited data

Results flagged for a closer look

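The Ptbp2-KO cortex entered no comparison, since no control libraries of that kind were analysed here, and 11 members had more than 3 counts, the limit a count of 0 allows, in each of its libraries. Over the 3 libraries Igfbp4 had 2525 counts, Asl 640, Ass1 154, Arg1 122, Cps1 81, Apob 77, Tdo2 77, Apoa1 30, Fbp1 21, Apoh 16 and Hpx 13. Igfbp4 stood at 33.5, 39.7 and 27.1 CPM. The secreted plasma proteins that led in liver were near 0 in replicates 1 and 2, with 1 and 3 counts of Alb and 0 and 0 of Ahsg and Serpina3k.

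Replicate 3 of the knockout differed from the others, with a chi-square per degree of freedom of 75.5 and 76.9 against them and 6.67 between replicates 1 and 2. It had 20 counts of Alb, and 25 of Cyp7a1, which had 0 in the other two.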

How the results depend on the processing

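No called difference of a member changed sign over the alternatives run. Thinning to the shallowest library left 6 genes and 0 members called in Camk2a against Gad2, 490 and 0 in Gfap against neurons (Igfbp4 -2.13, adjusted p 0.125), 1030 genes in Cx3cr1 against cortical groups, 0 in PBS against untreated and 83 in LPS against PBS. DESeq2 called 234 genes in PBS against untreated and 1781 in microglial RNA-seq. With no minimum count the calls were 313 genes and 7 members (PBS against untreated), 632 and 20 (LPS against PBS) and 3 members in RNA-seq. With neither that minimum nor PBS replicate 3 they were 155 and 338 genes. A replicate block gave 423 genes in LPS against PBS and 2770 in RNA-seq, and changed no other call of a member. Same-numbered correlations in RNA-seq were 0.114, 0.0977 and 0.192, but PBS replicate 1 correlated with LPS replicate 2 at 0.108. The numbers were therefore not taken as pairs there. A term for the file-name prefix gave 317 genes in LPS against PBS PAPERCLIP. Leaving out 1 library gave 1026 to 2650 genes and 0 to 2 members in Camk2a against Gad2, 4335 to 6384 and 2 to 2 in Gfap against neurons, 3569 to 4677 and 0 to 1 in Cx3cr1 against cortical groups, 3 to 495 and 0 to 0 in PBS against untreated, 74 to 167 and 0 to 1 in LPS against PBS, and 1845 to 2974 and 1 to 1 in RNA-seq. Apob ran from 2.29 to 2.59 on the log2 scale. Cps1 in Camk2a against Gad2 ran from -6.99 to -4.83 and failed the minimum count without Gad2 replicate 2. Ass1 there ran from -2.76 to -2.15.

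Differences of members that did not pass changed sign. Igfbp4 in Camk2a against Gad2 (0.03) was -0.0101 with RLE scaling, -0.0114 with DESeq2 and -0.57 when thinned, and ran from -0.16 to 0.26 with 1 library left out. In Cx3cr1 against cortical groups it ran from -0.35 to 0.85, in PBS against untreated from -0.20 to 0.89 (-0.22 when thinned), and in LPS against PBS from -0.34 to 0.0096. In RNA-seq Igfbp4 was -0.017 with library totals and -0.061 without replicate 3 of both groups, and ran from -0.0082 to 0.25. Asl there was -0.016 with library totals and ran from -0.20 to 0.35. Cps1 in Cx3cr1 against cortical groups was 0.57 with DESeq2 and negative in the edgeR fits run.

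The liver share was 10.9% without Alb and 16.0% without Igfbp4, Ass1, Asl and Arg1, and that of PBS replicate 3 was 0.207% and 0.278%. Scaling by library totals moved the median of all genes to -0.21 in Gfap against neurons and -0.13 in RNA-seq. A denominator without mitochondrial genes was not run, since the PAPERCLIP tables list none. The liver depth of 115734 counts and its single library limit every liver value, and 3 counts equal 25.9 CPM there. The cause of these shifts was not tested.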
